A study of Bos taurus with 3 samples.

Results

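The genes described here build and drive mitosis: the cyclins and their kinase CDK1, the Polo and Aurora kinases, the spindle checkpoint, the kinetochore, the mitotic kinesins and the condensins. They were taken by symbol, as every listed gene whose symbol matched a set of name stems such as CENP, KIF, BUB, AURK, NCAP or CDCA. No measured value entered the matching, but the stems were chosen with earlier results of these data known. Among the matches, CDCA3, FAM83D and CCDC99 had already been named by the paper as rising before calving and falling after it. The set is therefore not blind to the data, and its contrasts with all genes are descriptive. The stems found 72 of the 9154 genes with a tag in any library. Of these, 65 were grouped with cell division, though some of them, such as CDCA7, MAD2L2 and PLK3, are known for other work too. The rest were grouped apart. They are 4 further kinesins (KIF17, KIF2A, KIF3B and KIF3C) and 3 genes whose symbols begin with that of a mitotic gene (AURKAIP1, CCNB1IP1 and UBE2CBP). This grouping does not mean that none of them has a part in cell division.

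Mammary tissue of Holstein cows in their second parity and of one age was sampled by needle biopsy at 3 times around calving. The groups were −35 d, in the dry period with no milk secretion, −7 d, shortly before calving (stage I of lactogenesis), and +3 d, in early lactation with colostrum (stage II of lactogenesis). The labels name no treatment for any group. Tissue of 6 cows per time point, 18 cows in all, was pooled before RNA isolation, so that each time point is 1 library, no spread between cows can be estimated, and different cows stand at each time. Expression was measured by digital gene expression, in which 1 short tag next to the last CATG site of each polyadenylated transcript is sequenced and counted. A level is given as tags and as TPM, which here means tags in every 1000000 clean tags.

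Cyclins bind and switch on cyclin-dependent kinases, and the rise of cyclin B with CDK1 takes a cell into mitosis. The kinetochore then ties each chromosome to spindle microtubules, the checkpoint holds the cell until all are tied, and the anaphase-promoting complex (APC/C), a ubiquitin ligase, ends mitosis by marking cyclins and securin for destruction. Many of these transcripts are made mostly in dividing cells, so they serve as markers of proliferation. In the mammary gland, epithelial cells multiply in pregnancy and, in ruminants, late in the dry period, before secretion takes over.

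The libraries held 5914422, 5593237 and 5845821 clean tags at −35 d, −7 d and +3 d. A count of 3 tags, the limit that a count of 0 allows, corresponds to 0.507, 0.536 and 0.513 TPM. Intervals and limits cover counting error only, since amplified tags carry no molecular identifiers. The 5 genes that each took more than 1% of a library held 0.348%, 4.13% and 22.6% of the tags in turn, which lowers the TPM of every other gene at +3 d. TMM scaling (trimmed mean of M values), which is little affected by such genes, moves every log2 ratio up by 0.19 in stage I, 0.31 in stage II and 0.50 for +3 d against −35 d, and counts of called genes are given under both scalings where they differ. As a check of the tissue, the epithelial markers ELF5, KRT8 and EPCAM were present in all libraries, with 271, 353 and 155 TPM for ELF5, 297, 157 and 164 TPM for KRT8 and 498, 293 and 210 TPM for EPCAM. In such bulk tissue, fewer dividing cells and less RNA per cell cannot be told apart.

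As a group, the 72 genes were at their highest at −7 d and at their lowest at +3 d. Their summed level was 696 TPM at −35 d, 1057 TPM at −7 d and 353 TPM at +3 d. The 65 genes grouped with cell division made up 585, 950 and 281 TPM of this, including 104, 174 and 45.5 TPM from CDCA7 and CDCA7L. The highest TPM fell at −7 d for 56 of the 72 genes (77.8%), against 30.2% of all 9154 genes listed. It fell at −35 d for 14 genes and at +3 d for 2, PLK3 and KIF17. The lowest value was at +3 d for 62 of them. The share of all genes lowest at +3 d was not counted, but low values there were common with clean tag totals. Of all genes tested, 6576 of 8988 were lower at +3 d than at −35 d, and 5697 of 8784 lower than at −7 d. At least 1 tag was found for 68 genes at −35 d, 70 at −7 d and 62 at +3 d.

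**Figure D1:**
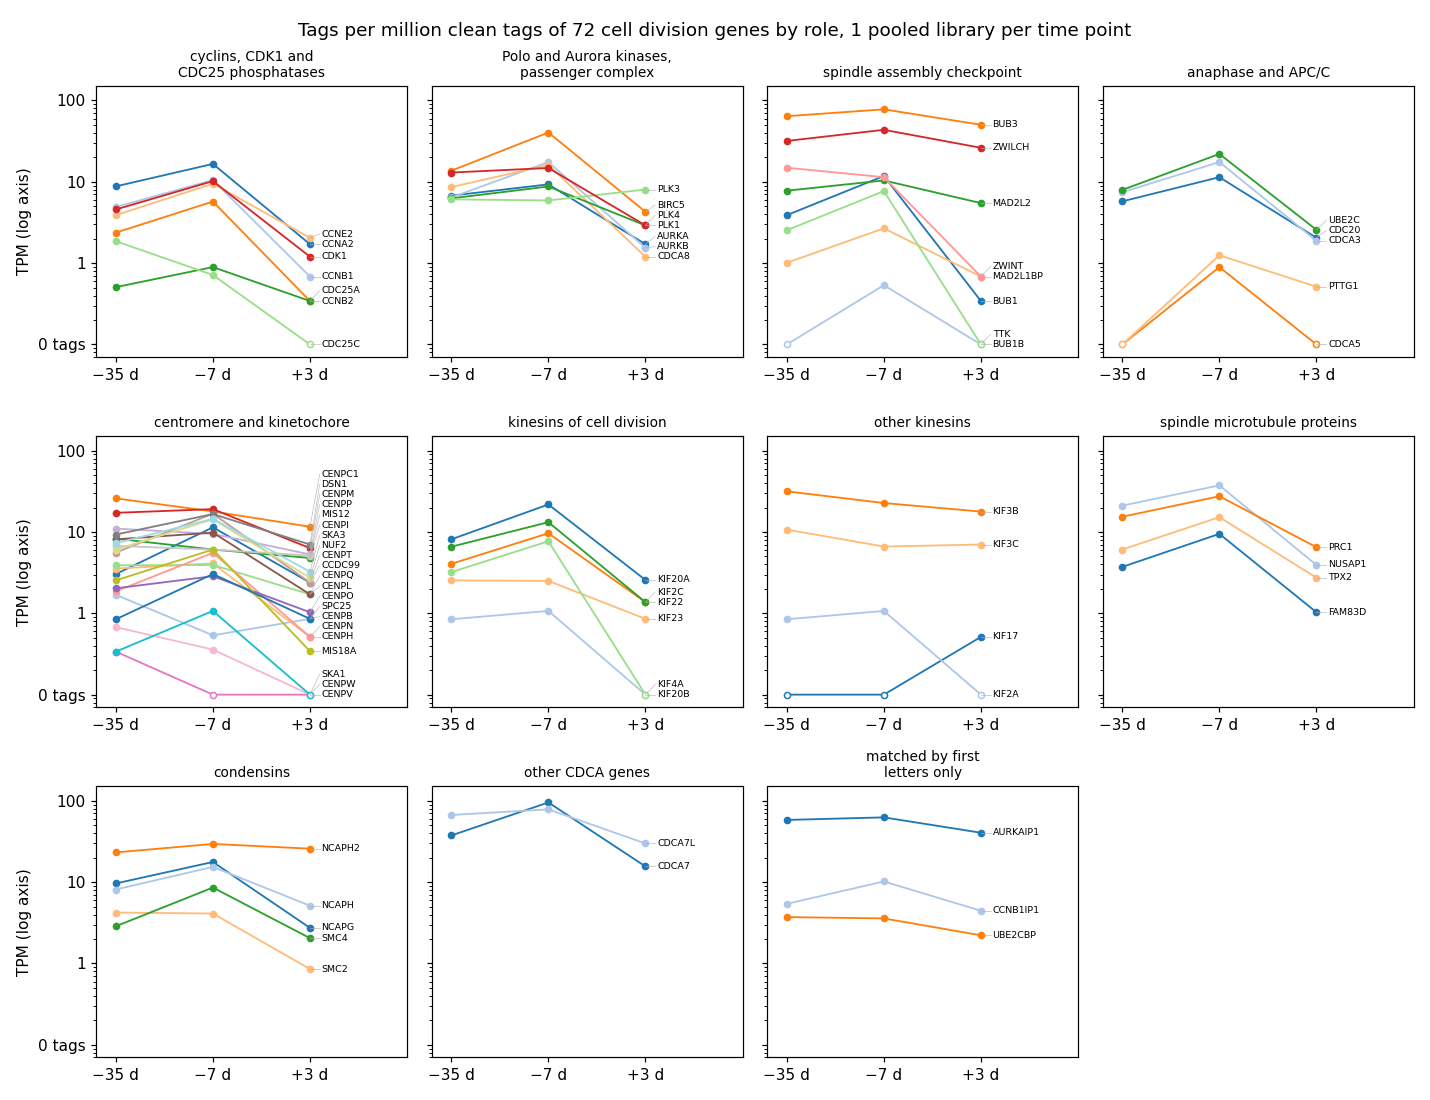
TPM (log axis) of the 72 genes at −35 d, −7 d and +3 d, in 1 panel per role, with 1 line per gene and 1 pooled library per time point; open points at the bottom of the axis stand for 0 tags. Most lines peak at −7 d and end lowest at +3 d, while PLK3, BUB3, NCAPH2, KIF3B and AURKAIP1 change less.

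A gene was called between a pair of libraries when the Audic-Claverie exact test, the study's own test for tag counts, gave a false discovery rate (FDR, adjusted over all genes with a tag in either library) of at most 0.001 and the TPM differed at least 2-fold. This compares the libraries, not the conditions. In stage I, 15 of 71 genes tested were upregulated at −7 d (21.1%), against 2.62% of all genes, and 0 were downregulated, against 6.45% of all genes. By the same exact test, 41 were higher and 3 lower at an unadjusted p below 0.05. No share of all genes was counted at this unadjusted limit, under either scaling, so these counts have no background to be read against. Under TMM scaling, 30 genes were upregulated (all genes, 4.22%) and 0 downregulated (all genes, 3.90%), with 45 higher and 0 lower at an unadjusted p below 0.05 in the exact test. The median log2 ratio was 0.88 over these genes and −0.22 over all genes. If the pools are taken to vary by an assumed coefficient of variation of 0.2, which these data cannot estimate, edgeR's exact test calls 0 genes in stage I.

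After calving, these genes were lower. In stage II, 40 of 71 genes were downregulated at +3 d (56.3%), against 10.4% of all genes, and 0 were upregulated, against 3.12% of all genes. At an unadjusted p below 0.05 in the exact test, 57 were lower and 0 higher, again with no share of all genes counted. Under TMM scaling, 37 were downregulated, all of them among the 40 (all genes, 4.90%), and 0 were upregulated (all genes, 5.87%), with 50 lower and 1 higher at an unadjusted p below 0.05 in the exact test. The median log2 ratio was −2.39 against −0.30 over all genes, or −2.06 with each count below 3 tags set at 3 tags. With the assumed coefficient of variation of 0.2, edgeR called 22 genes lower, and with 0.4 it called 0.

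Many of these genes were lower in early lactation than in the dry gland, too. At +3 d compared with −35 d, 25 of 70 genes were downregulated (35.7%), against 16.3% of all genes, and 0 were upregulated, against 2.33%. In the exact test at an unadjusted p below 0.05, 49 were lower and 0 higher with clean tag totals, and 31 lower and 2 higher with TMM scaling. The share of all genes was not counted at that limit here either. This comparison depended most on scaling, since TMM left 8 downregulated genes (all genes, 4.94%) and 0 upregulated (all genes, 6.23%). Those 8 were CCNA2, BIRC5, CDCA8, PLK4, ZWINT, CENPQ, KIF4A and NUSAP1. The median log2 ratio was −1.36 over these genes and −0.56 over all genes. At the assumed coefficient of variation of 0.2, edgeR called 2 genes lower here. All 3 comparisons share libraries pairwise, so a high or low value in the −7 d library moves both stage I and stage II.

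**Figure D2:**
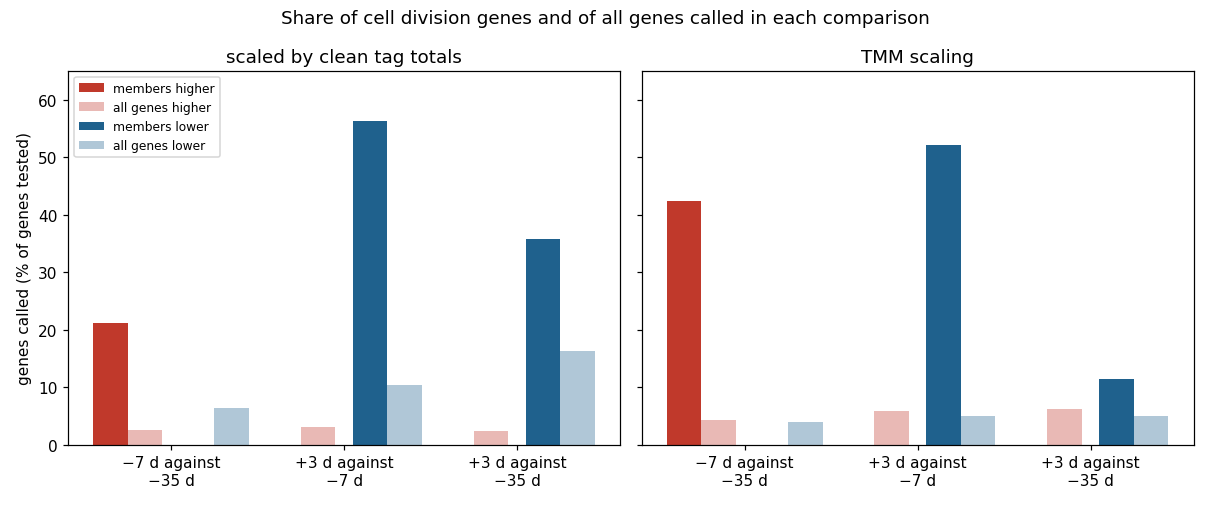
Share of the genes tested (%) that were called higher (red) or lower (blue) in each comparison, for the cell division genes (dark) and all genes (pale), scaled by clean tag totals (left) or by TMM (right). The dark bars reach 56.3% lower for +3 d against −7 d on the left and 42.3% higher for −7 d against −35 d on the right.

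**Figure D3:**
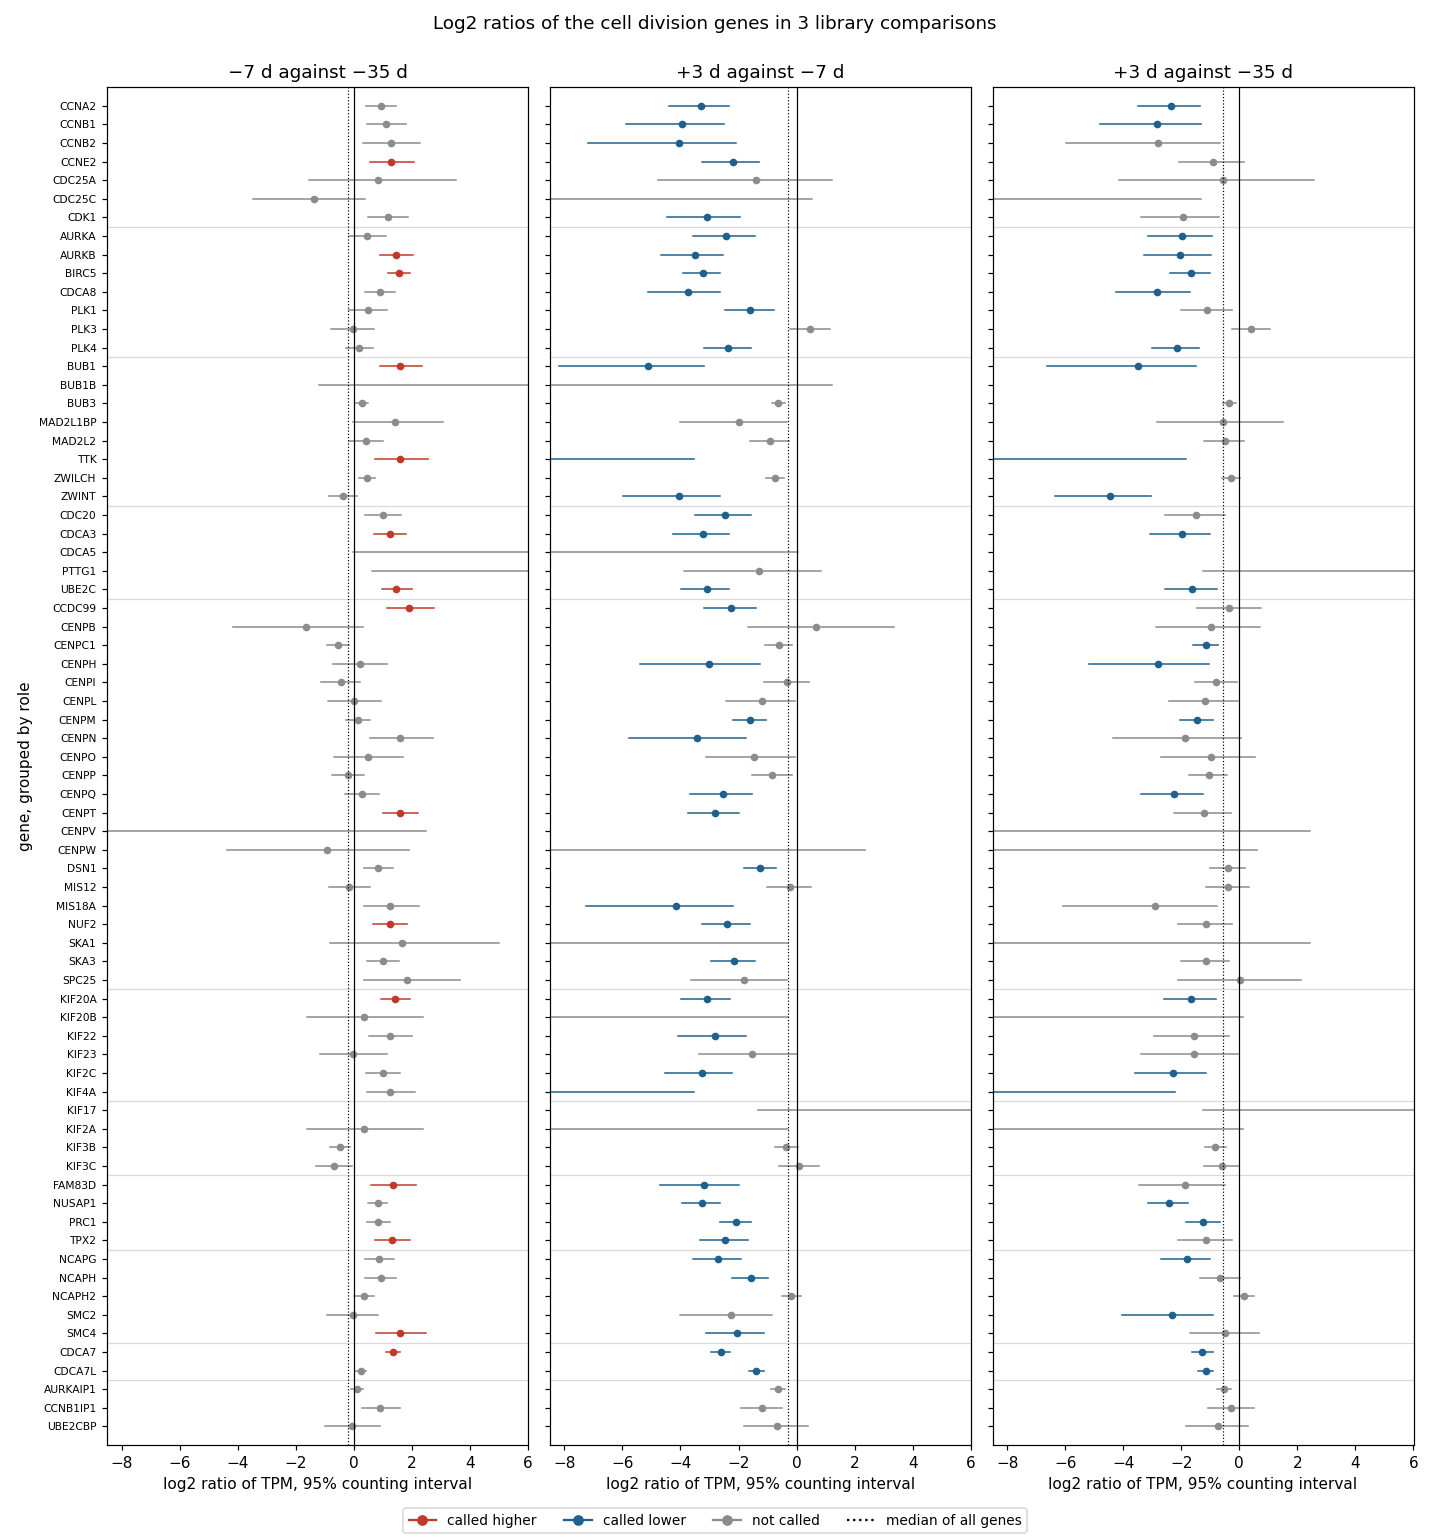
Log2 ratio of TPM of each gene with its exact 95% counting interval for −7 d against −35 d, +3 d against −7 d and +3 d against −35 d, with genes grouped by role; red and blue mark genes called higher and lower, grey those not called, and a line with no point has 0 tags in 1 library. The dotted line is the median of all genes, at −0.22, −0.30 and −0.56.

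Among the cyclins, CDK1 and the CDC25 phosphatases, which strip inhibitory phosphates from CDKs, 5 of 7 genes were downregulated in stage II and 1, CCNE2, was upregulated in stage I. CCNB1, the main mitotic cyclin, was counted with 29, 59 and 4 tags at −35 d, −7 d and +3 d (4.90, 10.5 and 0.684 TPM). CCNB2, its close relative, had 14, 32 and 2 tags (2.37, 5.72 and 0.342 TPM). Both rested on a handful of tags at +3 d, where CCNB1 was 15.4-fold lower than at −7 d (log2 −3.95, 95% interval −5.87 to −2.51) and CCNB2 16.7-fold lower (log2 −4.06, −7.17 to −2.09). Their partner CDK1 had 27, 57 and 7 tags (4.57, 10.2 and 1.2 TPM) and fell 8.51-fold in stage II. CCNA2, the cyclin of S phase and early mitosis, had 52, 93 and 10 tags (8.79, 16.6 and 1.71 TPM), fell 9.72-fold, and also lay 5.14-fold below the dry gland. Its stage I ratio of 1.89 passed the FDR (0.00081, Audic-Claverie exact test with Benjamini-Hochberg adjustment) but not the 2-fold limit.

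CCNE2, the E-type cyclin that opens S phase with CDK2, had the shallowest fall of the called cyclins, with 23, 53 and 12 tags (3.89, 9.48 and 2.05 TPM). It rose 2.44-fold in stage I and fell 4.62-fold in stage II. CDC25A had 3, 5 and 2 tags (0.507, 0.894 and 0.342 TPM), too few to show a change at this depth. CDC25C had 11, 4 and 0 tags (1.86, 0.715 and 0 TPM), highest at −35 d, and was not called in any comparison. Under TMM scaling CCNA2, CCNB1, CDK1 and CCNE2 were all upregulated in stage I.

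The Aurora kinases and the chromosomal passenger complex, which corrects faulty chromosome attachments, included both of the upregulated genes of this role in stage I. BIRC5 (survivin), a subunit of that complex, had 81, 226 and 25 tags (13.7, 40.4 and 4.28 TPM), a 2.95-fold rise (log2 1.56, 95% interval 1.19 to 1.95) and then a 9.45-fold fall. AURKB, its kinase, had 38, 98 and 9 tags (6.42, 17.5 and 1.54 TPM), a 2.73-fold rise and an 11.4-fold fall. CDCA8 (borealin), a further subunit, had 51, 90 and 7 tags (8.62, 16.1 and 1.2 TPM). It fell 13.4-fold in stage II, while its stage I ratio of 1.87 was not called. AURKA, which works at the spindle poles, had 40, 52 and 10 tags (6.76, 9.30 and 1.71 TPM), with a stage I log2 ratio of 0.46 (−0.16 to 1.09) and a 5.43-fold fall in stage II.

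The Polo-like kinases did not all fall after calving. PLK1, the mitotic member, had 37, 49 and 17 tags (6.26, 8.76 and 2.91 TPM) and fell 3.01-fold in stage II, a call that TMM scaling removed. PLK4, the kinase of centriole duplication, had 77, 83 and 17 tags (13, 14.8 and 2.91 TPM) and fell 5.10-fold. PLK3, known for stress responses more than for mitosis, had 36, 33 and 47 tags (6.09, 5.9 and 8.04 TPM), its highest value at +3 d, and was not called. Its log2 ratio in stage II was 0.45 (−0.23 to 1.13). Of the 7 genes in this role, 6 were downregulated in stage II (5 with TMM scaling) and 2 upregulated in stage I (3 with TMM scaling, which added CDCA8).

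The spindle assembly checkpoint is described next, with 3 of 8 genes downregulated in stage II and 2 upregulated in stage I. BUB1, a checkpoint kinase at the kinetochore, had 23, 66 and 2 tags (3.89, 11.8 and 0.342 TPM). It rose 3.03-fold in stage I, and the ratio of its 2 tags at +3 d to those at −7 d corresponded to a 34.5-fold lower level (log2 −5.11, 95% interval −8.18 to −3.20). TTK (MPS1), the kinase that starts the checkpoint signal, annotated here from a predicted transcript model, had 15, 43 and 0 tags (2.54, 7.69 and 0 TPM). It rose 3.03-fold and was then at least 15-fold lower at +3 d, with its 0 tags taken at the 3-tag limit. ZWINT, a kinetochore protein that recruits checkpoint proteins, had 88, 64 and 4 tags (14.9, 11.4 and 0.684 TPM). Unlike the others of this role it was highest at −35 d, but its stage I log2 ratio of −0.38 (−0.87 to 0.10) was not called. ZWINT was 16.7-fold lower in stage II and 21.7-fold lower at +3 d than at −35 d.

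None of the other 5 checkpoint genes was called in any comparison. BUB3, which has work outside mitosis as well, had 379, 435 and 294 tags (64.1, 77.8 and 50.3 TPM). Its stage II log2 ratio of −0.63 (−0.85 to −0.41) passed the FDR (3.81e-08, same exact test) but was under 2-fold. ZWILCH, part of the complex that brings dynein to the kinetochore, had 188, 244 and 153 tags (31.8, 43.6 and 26.2 TPM) and a stage II log2 ratio of −0.74 (−1.04 to −0.44). For these abundant transcripts the intervals are narrow and exclude a fall of the size seen for BUB1. MAD2L2 (REV7), a DNA repair protein, had 46, 58 and 32 tags (7.78, 10.4 and 5.47 TPM). MAD2L1BP, which silences the checkpoint, had 6, 15 and 4 tags (1.01, 2.68 and 0.684 TPM), and the checkpoint kinase-like BUB1B had 0, 3 and 0 tags (0, 0.536 and 0 TPM). Neither count is deep enough to show a change.

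Of the 5 genes grouped under anaphase and the APC/C, the 3 with adequate counts were all downregulated in stage II. UBE2C, the ubiquitin-conjugating enzyme that serves the APC/C, had 47, 123 and 15 tags (7.95, 22 and 2.57 TPM), rose 2.77-fold and fell 8.57-fold. CDCA3, which promotes entry into mitosis, had 44, 98 and 11 tags (7.44, 17.5 and 1.88 TPM), rose 2.36-fold and fell 9.31-fold. CDC20, the activator of the APC/C that the checkpoint restrains, had 34, 64 and 12 tags (5.75, 11.4 and 2.05 TPM). It fell 5.57-fold in stage II. Its stage I ratio of 1.99 passed neither the 2-fold limit nor the FDR (0.00354, Audic-Claverie exact test), with a call under TMM scaling only. PTTG1 (securin) had 0, 7 and 3 tags (0, 1.25 and 0.513 TPM) and CDCA5 (sororin, which protects cohesion) 0, 5 and 0 tags (0, 0.894 and 0 TPM), neither of which was called.

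The centromere and kinetochore genes formed the role with the most members, 21, of which 3 were upregulated in stage I and 10 downregulated in stage II, or 6 and 8 with TMM scaling. Of 11 constitutive centromere proteins, which sit on the centromere through the cell cycle, 1 (CENPT) was upregulated in stage I and 5 were downregulated in stage II, with median log2 ratios of 0.15 and −1.60, and TMM scaling called 2 and 4. Of 5 genes of the outer, microtubule-binding side, 2 (NUF2 and CCDC99) were upregulated in stage I and 3 (NUF2, CCDC99 and SKA3) downregulated in stage II, with medians of 1.67 and −2.26, or 1.23 and −2.16 with each count below 3 tags set at 3. TMM scaling called 3 and 3 of them. The division into layers follows textbook complexes, was made after the values had been seen, and was not tested. Their summed levels were 88.1, 96.0 and 35.9 TPM for the inner and 17.6, 44.3 and 9.24 TPM for the outer genes.

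CCDC99 (Spindly), the adaptor for dynein at kinetochores, had 18, 64 and 14 tags (3.04, 11.4 and 2.39 TPM), rose 3.76-fold in stage I and fell 4.78-fold in stage II, back to the range of the dry gland (log2 −0.35 at +3 d against −35 d, −1.47 to 0.74). NUF2, a subunit of the NDC80 complex that grips microtubules, had 36, 80 and 16 tags (6.09, 14.3 and 2.74 TPM), a 2.35-fold rise and a 5.23-fold fall. SKA3, which strengthens that grip, had 43, 81 and 19 tags (7.27, 14.5 and 3.25 TPM) and fell 4.46-fold. All 3 genes were highest at −7 d. SPC25, the partner of NUF2, had 5, 17 and 5 tags (0.845, 3.04 and 0.855 TPM), with log2 ratios of 1.85 (0.35 to 3.64) and −1.83 (−3.62 to −0.33), and was not called in either stage. SKA1 had 2, 6 and 0 tags.

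CENPT, the inner protein that binds DNA and recruits NDC80, had 33, 94 and 14 tags (5.58, 16.8 and 2.39 TPM) and was the 1 inner protein called in stage I, with a 3.01-fold rise in stage I (log2 1.59, 1.0 to 2.21), followed by a 7.02-fold fall. CENPN, which reads the centromeric nucleosome, had 11, 31 and 3 tags (1.86, 5.54 and 0.513 TPM) and a stage II ratio of 10.8-fold lower (log2 −3.43, −5.79 to −1.75). CENPM had 102, 107 and 37 tags (17.2, 19.1 and 6.33 TPM) and CENPQ 48, 55 and 10 tags (8.12, 9.83 and 1.71 TPM). Both fell in stage II, by 3.02-fold and 5.75-fold, and neither was called in stage I (log2 0.15, −0.26 to 0.56, and 0.28, −0.31 to 0.87). CENPH had 21, 23 and 3 tags (3.55, 4.11 and 0.513 TPM) and was 8.01-fold lower in stage II (log2 −3.0, −5.38 to −1.28), a call lost with TMM scaling.

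CENPC1, the protein that joins the centromere to the MIS12 complex, was not called in either stage but declined over both, with 153, 100 and 68 tags (25.9, 17.9 and 11.6 TPM). It was 2.22-fold lower at +3 d than at −35 d, again a call lost with TMM scaling. CENPP had 65, 53 and 31 tags (11, 9.48 and 5.30 TPM), CENPI 49, 34 and 28 (8.28, 6.08 and 4.79 TPM), CENPL 23, 22 and 10 (3.89, 3.93 and 1.71 TPM) and CENPO 12, 16 and 6 (2.03, 2.86 and 1.03 TPM). None of these 4 was called in any comparison by the exact test, and each was lowest at +3 d. CENPW and CENPV, with 6 and 2 tags in all, and CENPB, with 18, were too rare to compare.

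In the MIS12 complex, the bridge between both layers, 1 of the 2 genes measured was called. DSN1 had 55, 93 and 41 tags (9.30, 16.6 and 7.01 TPM) and fell 2.37-fold in stage II, a call lost with TMM scaling. MIS12 itself had 40, 34 and 30 tags (6.76, 6.08 and 5.13 TPM) and log2 ratios of −0.15 (−0.86 to 0.54) and −0.24 (−1.0 to 0.51), whose sign turned to positive under TMM scaling. MIS18A, needed to load new CENP-A into centromeres after division, had 15, 34 and 2 tags (2.54, 6.08 and 0.342 TPM) and was 17.8-fold lower in stage II (log2 −4.15, −7.25 to −2.19).

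Kinesins are described by function. Of the 6 grouped with cell division, 4 were downregulated in stage II and 1 upregulated in stage I (4 and 4 with TMM scaling). None of the 4 grouped apart was called in any comparison. Of these 4, KIF2A and KIF17 had too few tags to compare, as had KIF20B among the 6. KIF20A, a motor of cytokinesis, had 48, 122 and 15 tags (8.12, 21.8 and 2.57 TPM), rose 2.69-fold and fell 8.5-fold. KIF2C, which takes microtubules apart at faulty attachments, had 39, 74 and 8 tags (6.59, 13.2 and 1.37 TPM) and fell 9.67-fold. The chromosome-bound KIF22 had 24, 54 and 8 tags (4.06, 9.65 and 1.37 TPM) and fell 7.05-fold. KIF4A, annotated from a predicted transcript model, had 19, 43 and 0 tags (3.21, 7.69 and 0 TPM) and was at least 15-fold lower in stage II. TTK, SMC2, CENPB and CENPV were annotated from such models too. KIF23, a motor of the central spindle, had 15, 14 and 5 tags (2.54, 2.50 and 0.855 TPM) and was not called, nor was KIF20B with 5, 6 and 0 tags.

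KIF3B, a subunit of the kinesin-2 motor of cilia and vesicle transport, had its highest level at −35 d, with 187, 127 and 104 tags (31.6, 22.7 and 17.8 TPM). KIF3C, its relative, had 63, 37 and 41 tags (10.7, 6.62 and 7.01 TPM). Both gave stage I log2 ratios below 0, −0.48 (−0.81 to −0.14) and −0.69 (−1.31 to −0.08), the opposite side from most mitotic kinesins. KIF2A had 5, 6 and 0 tags and KIF17 had 0, 0 and 3 tags (0, 0 and 0.513 TPM), a count at the detection limit.

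All 4 spindle microtubule proteins were downregulated in stage II, and 2 were upregulated in stage I. NUSAP1, which bundles microtubules near chromosomes, had 125, 209 and 23 tags (21.1, 37.4 and 3.93 TPM), and its 9.50-fold fall (log2 −3.25, −3.94 to −2.62) rests on some of the larger counts of the set. PRC1, the crosslinker of the central spindle, had 91, 154 and 38 tags (15.4, 27.5 and 6.50 TPM) and fell 4.24-fold. TPX2, the activator of Aurora A on the spindle, had 36, 85 and 16 tags (6.09, 15.2 and 2.74 TPM), rose 2.50-fold and fell 5.55-fold. FAM83D, which brings KIF22 to the spindle, had 22, 53 and 6 tags (3.72, 9.48 and 1.03 TPM), rose 2.55-fold and fell 9.23-fold. With TMM scaling all 4 were upregulated in stage I.

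Condensins, the rings that compact chromosomes, are described by complex, with 1 of 5 genes upregulated in stage I (3 with TMM scaling) and 3 downregulated in stage II. NCAPG had 57, 99 and 16 tags (9.64, 17.7 and 2.74 TPM) and NCAPH 48, 86 and 30 tags (8.12, 15.4 and 5.13 TPM). These subunits of condensin I fell 6.47-fold and 3.0-fold in stage II. NCAPH2, the matching subunit of condensin II, had 137, 165 and 151 tags (23.2, 29.5 and 25.8 TPM) with a stage II log2 ratio of −0.19 (−0.52 to 0.14), which turned to 0.12 under TMM scaling. Of the core shared by both complexes, SMC4 had 17, 48 and 12 tags (2.87, 8.58 and 2.05 TPM), a 2.99-fold rise and a 4.18-fold fall. SMC2 had 25, 23 and 5 tags (4.23, 4.11 and 0.855 TPM), and was not called in either stage but was 4.94-fold lower at +3 d than at −35 d, a call lost with TMM scaling.

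CDCA7, a chromatin factor induced by MYC and E2F, had 222, 534 and 91 tags (37.5, 95.5 and 15.6 TPM). This gene rose 2.54-fold in stage I (log2 1.35, 1.12 to 1.58) and fell 6.13-fold in stage II. CDCA7L, its paralog, had 396, 439 and 175 tags (67.0, 78.5 and 29.9 TPM), no call in stage I (log2 0.23, 0.03 to 0.43) and a 2.62-fold fall in stage II. The 3 genes whose symbols begin with that of a mitotic gene were not called in any comparison. CCNB1IP1 came close in stage II, 2.29-fold lower at an FDR of 0.00105 in the Audic-Claverie exact test. AURKAIP1, a mitochondrial ribosome protein, had 344, 350 and 237 tags (58.2, 62.6 and 40.5 TPM), CCNB1IP1, a meiotic recombination factor, 32, 57 and 26 (5.41, 10.2 and 4.45 TPM), and UBE2CBP, a ubiquitin ligase, 22, 20 and 13 (3.72, 3.58 and 2.22 TPM).

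The ratio of tags of a pair of related genes within a library does not depend on scaling, so its change between libraries was taken for 20 pairs of one family or complex, of which 19 had enough tags in stages I and II. The pairs were picked after the values had been seen, and the exact 95% intervals are given as a description without a test. CDCA7 to CDCA7L stood at 0.561, 1.22 and 0.520, a 2.17-fold change in stage I (1.75 to 2.68) that stage II undid (0.428, 0.318 to 0.572). BUB1 to BUB3 changed by 2.50 (1.5 to 4.29) and then by 0.0449 (0.00529 to 0.171). In both pairs the first gene swung more than its relative at each step. KIF20A to KIF3B, a division motor over a transport motor, changed by 3.73 (2.46 to 5.73) and by 0.151 (0.0771 to 0.278). PLK3 to PLK4 changed by 0.851 (0.464 to 1.56) in stage I and by 6.87 (3.33 to 14.7) in stage II. Condensin kleisins, NCAPH to NCAPH2, changed by 1.49 (0.959 to 2.32) and 0.382 (0.230 to 0.623).

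For CCNB1 to CCNB2, alternative B-type cyclins, and for AURKB to BIRC5, partners in the chromosomal passenger complex, the interval of the change held 1 in both stages. CCNB1 to CCNB2 changed by 0.891 (0.378 to 2.04) and 1.08 (0.146 to 12.6), and AURKB to BIRC5 by 0.924 (0.576 to 1.5) and 0.831 (0.329 to 1.92). The intervals after calving are wide because few tags were left at +3 d. Within the same passenger complex, CDCA8 to BIRC5 changed by 0.633 (0.404 to 0.995) in stage I and 0.704 (0.248 to 1.75) in stage II. The interval did not hold 1 for SMC2 to SMC4 either, with a change of 0.329 (0.137 to 0.773) in stage I, and MIS12 to DSN1, with 0.504 (0.274 to 0.921) and then 1.99 (1.03 to 3.86). AURKA to AURKB, related kinases of different complexes, changed by 0.506 (0.278 to 0.915) in stage I.

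**Figure D4:**
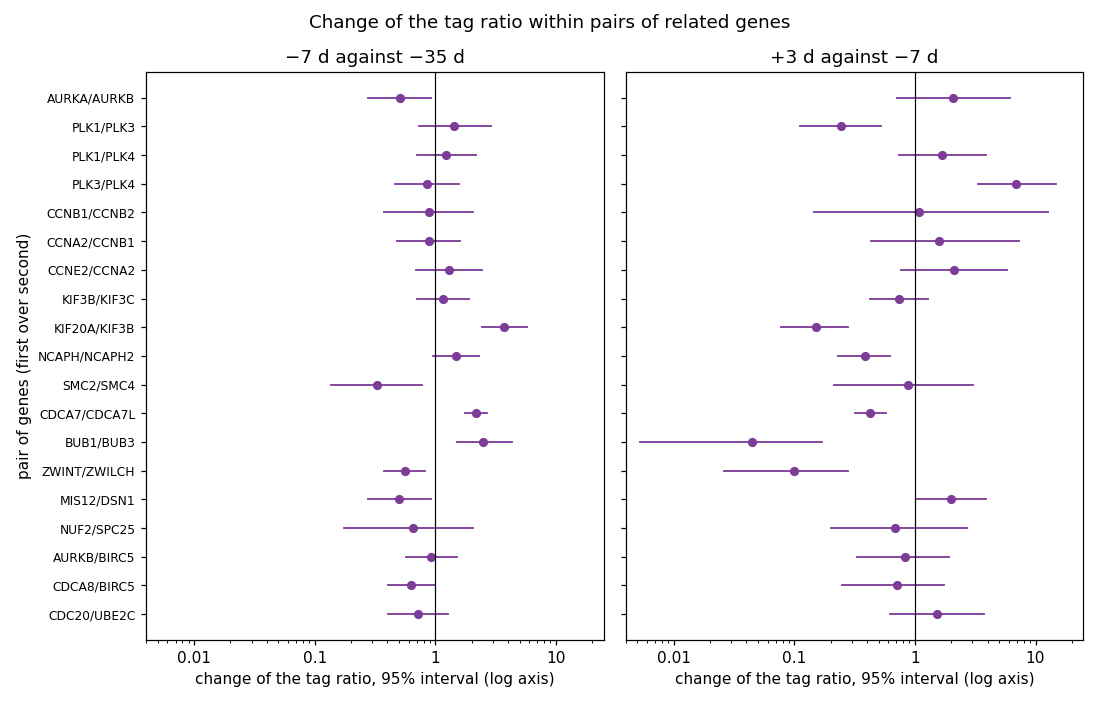
Change of the tag ratio (first gene over second, log axis) from −35 d to −7 d (left) and from −7 d to +3 d (right) for 19 pairs of related genes, with exact 95% intervals; 1 marks no change. CDCA7/CDCA7L moved to 2.17 and then 0.428, KIF20A/KIF3B to 3.73 and then 0.151, while AURKB/BIRC5 stayed at 0.924 and 0.831.

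Genes of neighbouring pathways were counted in the same way. With clean tag totals, 2.62% of all genes were upregulated and 6.45% downregulated in stage I. In stage II, 3.12% were upregulated and 10.4% downregulated. With TMM scaling these shares were 4.22%, 3.90%, 5.87% and 4.90%, in that order. They are the reference for each list below, and on the shorter lists a count of 1 or 2 is description only. Of 24 measured genes of mitosis and cytokinesis outside the name stems, 3 were upregulated and 1 downregulated in stage I, and 11 were downregulated and 0 upregulated in stage II. With TMM scaling these counts were 5 and 0 in stage I and 10 and 0 in stage II. STMN1, a microtubule-destabilising protein, had 642, 881 and 197 tags and fell 4.67-fold in stage II. GTSE1 had 129, 311 and 97 tags, rose 2.55-fold and fell 3.35-fold, and HAUS2, of the augmin complex, had 235, 221 and 144 tags and was not called. CKS1B, a CDK subunit, went the other way in stage I, with 51, 16 and 14 tags, a 3.01-fold fall whose call TMM scaling removed. Of 9 APC/C genes, 1 was upregulated in stage I and 2 were downregulated in stage II. CDC26, an APC/C subunit, rose 2.01-fold in stage I, while ANAPC13 had 408, 366 and 150 tags and fell 2.55-fold in stage II, ANAPC16 had 233, 320 and 169 tags, and CDC27 had 159, 213 and 163 tags.

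The genes of G1, which decide on entry into the cycle, were counted too. Of 15 measured, 2 were highest at −7 d, against 30.2% of all genes. In stage I, 1 was upregulated and 1 downregulated, against 2.62% and 6.45% of all genes. In stage II, 2 were downregulated, against 10.4% of all genes. These were CDKN2C, 2.41-fold lower, and the D-type cyclin CCND1, with 47, 25 and 4 tags and a 6.53-fold lower level. CCND1 was also 11.6-fold lower at +3 d than at −35 d, a call that TMM scaling kept. The median log2 ratio in stage I was −0.61, against −0.22 over all genes. CCND3, a D-type cyclin, had 770, 652 and 533 tags, CDKN1C, a CDK inhibitor, had 284, 225 and 293 tags, and CDK4, the partner of D-type cyclins, had 204, 128 and 95 tags, with no call for any of them in stage I or II. CDKN2C, an inhibitor of CDK4 and CDK6, rose 2.02-fold in stage I with 64, 122 and 53 tags, and RBL2 (p130), a pocket protein of resting cells, had 30, 3 and 8 tags and a 9.46-fold lower level at −7 d (log2 −3.24, −5.60 to −1.56). Of 8 E2F and MuvB genes, whose products switch many mitotic promoters on or off, 0 were called in stage I by the exact test with clean tag totals, 1 was upregulated under TMM scaling, and 2 (MYBL2 and TFDP1) were downregulated in stage II, calls that TMM scaling removed, as it did for the 2 of stage II on the G1 list. RBBP4 had 665, 550 and 333 tags, E2F4 263, 315 and 256, and LIN37 201, 153 and 114. Of 5 cohesin genes, 1 (ESCO2) was downregulated in stage II, and RAD21, the best counted, had 529, 518 and 543 tags, with SMC3 at 61, 31 and 22.

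Markers of the cell types that a biopsy can hold were measured beside the mitotic genes. The shares of all genes called that were given for the neighbouring pathways apply here too. The 7 luminal epithelial markers summed to 1189, 875 and 611 TPM, with 2 (CDH1 and CLDN4) downregulated in stage I and 1, ELF5, in stage II, of which TMM scaling kept CDH1 alone. The 7 macrophage markers summed to 324, 252 and 457 TPM, with 3 downregulated in stage I and 3 (4 with TMM scaling) upregulated in stage II, and the 7 T cell markers to 167, 109 and 108 TPM, with 1 downregulated in stage I and 1 upregulated in stage II. B and plasma cell markers (3 genes) summed to 298, 159 and 173 TPM, endothelial markers (5 genes) to 66.1, 43.8 and 58.2 TPM and fibroblast markers (5 genes) to 7618, 5728 and 8677 TPM, with 1, COL1A2, upregulated in stage II. All 6 sums were lower at −7 d than at −35 d, whereas the summed level of the mitotic genes was higher at −7 d. The most abundant genes weigh most in such sums. Single markers rose from −35 d to −7 d without a call, namely ELF5 (271 to 353 TPM), GATA3 (16.6 to 23.1), CD14 (2.87 to 4.29) and LUM (503 to 511). All other measured markers were lower at −7 d. No measured marker on these lists was at 0 in any library, and the part of a changed cell mixture in the mitotic results was not tested.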

How the data were processed

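Biopsies of second-parity Holstein cows were pooled by time point (6 cows each), RNA was isolated, and 1 library per time point was made by NlaIII and MmeI digestion. The authors removed tags with adaptors, unknown bases or 1 copy, matched the remaining clean tags to a bovine reference allowing 1 mismatch, and dropped tags that fit several genes. The authors deposited tag counts per gene and the TPM derived from them, which equal the count over all clean tags. The tables of copies per tag, also deposited as counts, were used for the library totals (5914422, 5593237 and 5845821 tags), and the file of the authors' own comparisons was not used.

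Genes were selected by symbol and grouped into 11 roles. The symbols and lists were chosen with earlier results of these data known, the pattern of the kinetochore role was corrected for CENPC1 after the files had been read, and the sub-lists of the kinetochore and the gene pairs were chosen after the values had been seen. Any gene of the set could be named; of the other lists, the 3 genes with most tags and those called against the list were named, and further names were added after their values were seen. FOXM1, INCENP, NDC80, MAD2L1, CENPA and further symbols of the same functions, such as KIF11 and CENPE, were listed in no library under those symbols. They therefore have no value here. The same holds for MKI67 and TOP2A, which lie outside the name stems. Tag sequences, promoter motifs and protein motifs were not analysed.

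Counts were compared with the Audic-Claverie exact test (2-sided, as 2 times the smaller tail) in Python 3.11.15 with scipy 1.17.1, with Benjamini-Hochberg adjustment over all genes with a tag in either library. Genes at an FDR of at most 0.001 and a 2-fold ratio of TPM were called, with 0 TPM set to 0.01 for ratios. Intervals are exact (Clopper-Pearson) at 95%. The test was checked on simulated counts. Alternatives were TMM (edgeR 4.0.16) and DESeq2 1.42.0 size factors, totals without genes over 1% of a library, Fisher's test, the exact test of edgeR (coefficient of variation between pools assumed at 0.2 or 0.4), a 3-fold limit, a mean of at least 5 TPM, 0.5 added tags, and leaving out other kinesins and first-letter matches. With 1 library per time point, no replicate model could be fitted, and p-values measure counting error only.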

Additional observations from a re-analysis of the deposited data

How the results depend on the processing

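No paired analysis was possible because each time point is 1 library, and leaving out a library was not possible for the same reason. The number of genes upregulated in stage I, 15, became 30 with TMM, 30 with DESeq2 size factors, 4 with the 3-fold limit, and 0 with edgeR's exact test at an assumed coefficient of variation of 0.2 or of 0.4. The 40 downregulated in stage II became 22 at 0.2 and 0 at 0.4. The 25 downregulated at +3 d against −35 d became 8 with TMM, 8 with DESeq2 size factors, 14 without the genes over 1% of a library, 2 at a coefficient of 0.2 and 0 at 0.4. The 56 genes highest at −7 d became 37 when a mean of 5 TPM was required, which leaves fewer genes. The medians of the log2 ratios kept their sign in every alternative run, and the causes of the other changes were not tested.

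Of the log2 ratios of single genes, counted once per gene, comparison and alternative, 38 changed sign. Of these, 0 belonged to a gene called in that comparison, though CCDC99, SMC4, DSN1 and SMC2 were called in another. The alternatives that changed a sign were TMM, DESeq2 size factors and totals without genes over 1%. In stage I the log2 ratios became, in that order, 0.15, 0.15 and 0.01 for PLK3, 0.17, 0.17 and 0.04 for KIF23, 0.15, 0.15 and 0.02 for SMC2, and with the first 2 only, 0.13 and 0.14 for UBE2CBP and 0.04 and 0.04 for MIS12. In stage II they became 0.06, 0.08 and 0.06 for MIS12 and 0.12, 0.13 and 0.12 for NCAPH2. At +3 d against −35 d they became 0.22, 0.23 and 0.08 for CCNB1IP1, 0.15, 0.17 and 0.02 for BUB3, 0.15, 0.17 and 0.02 for CCDC99, 0.22, 0.24 and 0.08 for ZWILCH, and with the first 2 only, 0.10 and 0.12 for MIS12, 0.09 and 0.11 for DSN1 and 0.01 and 0.03 for SMC4. MAD2L2 became 0.01 with DESeq2 size factors alone.

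Depth limits the rarest genes. At most 3 tags in a library were found for 19 of the 72 genes, and 12 had under 20 tags in all 3 libraries together, where a change of several fold could not be detected.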
